A study of Mus musculus with 6 samples.

Results

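The 9 genes Neurog3, Neurod1, Insm1, Pax4, Pax6, Isl1, Nkx2-2, Rfx6 and Fev encode transcription factors of the enteroendocrine lineage, and their transcript levels were compared between intestinal crypts of WT and Mtg16-/- mice. They were taken by symbol from a deposited table of 24736 genes, and all 9 were found in it. The series holds 6 libraries, 1 per mouse, from 3 WT and 3 Mtg16-/- males aged 12 weeks. Crypts, the pits of the epithelium that hold the stem cells and their early progeny, were detached from the whole length of the gut in cold EDTA and received no treatment. MTG16 is a transcriptional co-repressor encoded by Cbfa2t3. The labels call the knockout CRISPR-induced, while the study's methods describe mice received from another laboratory, and neither names a cell type to which the deletion was limited. Values are TPM, transcript abundances scaled for transcript length and to the same total in every library. Levels can therefore be set side by side between genes, but the read depth behind them is unknown.

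Enteroendocrine cells are the scattered hormone-producing cells of the gut epithelium. They arise from secretory progenitors in which ATOH1 is active and Notch signaling is low. Neurog3, a basic helix-loop-helix factor, is switched on briefly in the endocrine progenitor and is required for the lineage. Neurod1 and Insm1 act after it, and the homeodomain factors Pax4, Pax6, Isl1 and Nkx2-2, the winged-helix factor Rfx6 and the ETS factor Fev take part in the maturation of hormone-producing cells or in the choice between their subtypes.

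Cbfa2t3 was measured at 3.67, 6.69 and 4.52 TPM in WT, against 4.62, 6.43 and 3.23 TPM in libraries labelled Mtg16-/-. The targeted gene therefore did not distinguish the genotypes, a gene-level TPM cannot show a missing exon, and every direction given here rests on the labels. Hormone transcripts, the defining products of enteroendocrine cells, were present in every library, with a summed TPM of 337.42 to 605.52 over 13 genes.

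All 9 genes were of low abundance in crypt RNA. Their means over the 6 libraries ran from 1.06 TPM for Pax6 to 7.23 TPM for Neurog3, against a median of 20.7 TPM over the 12268 genes with a mean of at least 1 TPM, which were the genes tested. Neurog3 exceeded 23.9% of the tested genes and Pax6 only 0.579%. In WT crypts the order by mean TPM was Neurog3, Nkx2-2, Insm1, Neurod1, Rfx6, Fev, Pax4, Isl1 and Pax6. The ranges of neighbours among the leading 4 genes overlapped, as did those of Rfx6 and Fev. Neurod1 and Rfx6, Fev and Pax4, Pax4 and Isl1, and Isl1 and Pax6 had ranges that were apart. In Mtg16-/- crypts Neurog3, Nkx2-2, Insm1 and Neurod1 led in the same order, and Pax4, at position 7 in WT, came last, with a range that overlapped that of Pax6.

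The genes lie on 5 chromosomes, by RefSeq on GRCm38.p6, the assembly that the submitters' build mm10 corresponds to. Neurog3 (chr10:62133090-62134763, plus strand) and Rfx6 (chr10:51677760-51730429, plus strand) share chromosome 10. Neurod1 (chr2:79452637-79456636, minus strand), Pax6 (chr2:105668896-105698410, plus strand), Insm1 (chr2:146221997-146225020, plus strand) and Nkx2-2 (chr2:147176485-147195434, minus strand) are on chromosome 2. Pax4 is at chr6:28442334-28449340, Isl1 at chr13:116298270-116309688 and Fev at chr1:74881501-74885473, all 3 on the minus strand. TPM was summed over the transcripts of each gene, without a split into exons, introns or untranslated regions.

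Promoter windows of 250 bases directly before an annotated RefSeq transcription start were read for 7 of the 9 genes, in 8 windows because Pax6 has 2. The start was that of the gene span given above in 4 windows, those of Neurog3, Neurod1 and Isl1 and the upstream one of Pax6. The other 4 belong to starts inside the span, with the windows of Nkx2-2 and Rfx6 and the second one of Pax6 wholly within the gene and that of Fev partly so. They were searched on both strands for CANNTG, the E-box that basic helix-loop-helix factors such as ATOH1, NEUROG3 and NEUROD1 bind, and for its forms CAGCTG and CAGATG, the latter read as CATCTG on the other strand. CAGCTG, which reads the same on both strands, was present in 2 of the 8 windows, those of Neurog3 and Isl1, and in 13% of all 32851 promoter windows of this length. CAGATG or CATCTG was present in 1 of the 8, the Nkx2-2 window inside that gene, and in 14.4% of all windows. Any CANNTG, which includes those forms, was in 5 of the 8 and in 66.2% of all windows. A selection of the windows is shown from 5′ to 3′ in the direction of the gene, those of Neurog3 and Isl1 for their CAGCTG, in capitals, and the upstream window of Pax6 as one without CANNTG.
Neurog3, chr10:62132840-62133089, plus strand: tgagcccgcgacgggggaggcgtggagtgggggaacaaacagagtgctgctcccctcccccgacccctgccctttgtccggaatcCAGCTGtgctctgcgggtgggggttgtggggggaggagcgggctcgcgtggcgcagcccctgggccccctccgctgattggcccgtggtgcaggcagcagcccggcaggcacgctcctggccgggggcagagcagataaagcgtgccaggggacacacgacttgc
Isl1, chr13:116309689-116309938, minus strand: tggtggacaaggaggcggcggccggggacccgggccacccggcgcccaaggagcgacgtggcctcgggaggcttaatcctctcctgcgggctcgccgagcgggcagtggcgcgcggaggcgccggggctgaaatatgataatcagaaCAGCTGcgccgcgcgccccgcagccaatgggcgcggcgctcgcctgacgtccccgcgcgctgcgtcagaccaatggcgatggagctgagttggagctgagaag
Pax6, chr2:105668646-105668895, plus strand: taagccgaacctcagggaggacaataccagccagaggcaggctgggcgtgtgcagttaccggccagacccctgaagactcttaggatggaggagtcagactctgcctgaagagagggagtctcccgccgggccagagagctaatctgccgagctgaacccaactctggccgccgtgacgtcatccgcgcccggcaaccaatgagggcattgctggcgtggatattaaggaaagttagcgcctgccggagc
The CAGCTG began 165 bases before the start of Neurog3 and 103 bases before that of Isl1. The match is a description of letters and no measure of binding.

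Between the genotypes, none of the 9 genes passed the test, limma's moderated test on log2(TPM + 1) with Benjamini-Hochberg adjustment over all tested genes, at an adjusted p under 0.1. That limit was passed by 4 of 12268 genes, or 0.0326%. The fitted value was above 0, that is higher in Mtg16-/-, for 9 of the 9, against 46.4% of all tested genes. An unadjusted p under 0.05 with a higher value in Mtg16-/- was reached by 7 of the 9, all but Pax4 and Rfx6, against 6.53% of tested genes. The 3 Mtg16-/- libraries lay above all 3 WT libraries for 7 of the 9, all but Neurog3 and Pax4, against 9.94% of tested genes. The median log2 fold change of the 9 was 0.57, and that of all tested genes was -0.03. Across the 6 libraries, pairs of the 9 correlated at a Pearson r of 0.134 (Pax4 and Rfx6) to 0.962 (Isl1 and Fev). These values include the difference between genotypes. The counts above are therefore not those of 9 independent genes. Isl1 and Pax6 had WT means under 1 TPM and entered the test through their Mtg16-/- values. Of the 7 other genes, 5 were apart between the groups and 5 had an unadjusted p under 0.05. With no filter on low values, a fit of 17505 genes, 5 of the 9 had an unadjusted p under 0.05. The share of all genes at that limit was not counted in that fit.

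**Figure D1:**
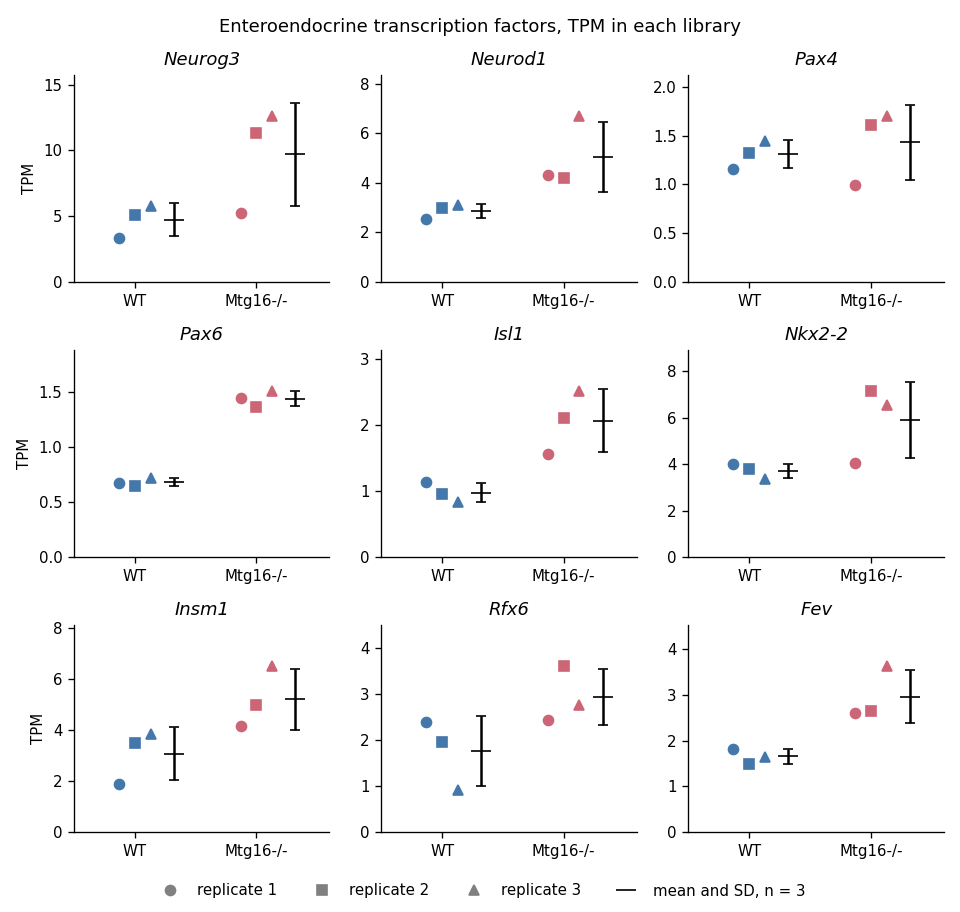
TPM of the 9 transcription factor genes in each library, with WT at the left and Mtg16-/- at the right of each panel, a symbol for each replicate number, and the mean ± SD (n = 3) as a black bar. Every axis starts at 0 and has its own scale. The groups overlapped for Neurog3 and Pax4 and were apart for the other 7 genes, with Pax6 the most tightly grouped.

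The earliest factor of the lineage was also the most abundant and the most variable in the mutant. Neurog3 had a TPM of 3.34, 5.10 and 5.80 in WT and of 5.22, 11.29 and 12.60 in Mtg16-/-. Mtg16-/- replicate 1 fell inside the WT range, while the other 2 mutant libraries were above it. The means were 4.75 ± 1.27 and 9.70 ± 3.94 (SD, n = 3), a ratio of 2.04. The fitted log2 fold change came to 0.84 (standard error 0.318, 95% interval 0.108 to 1.58, adjusted p = 0.309), and it was 0.63 without Mtg16-/- replicate 3 and 1.20 without Mtg16-/- replicate 1. Neurog3 overlaps Fam241b, a gene on the opposite strand that was at 10.93 to 12.37 TPM in WT and 15.48 to 16.84 TPM in Mtg16-/-, groups that were also apart. Whether the counting used strand is not given in the sources used here, so the assignment of reads between these genes is uncertain.

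Neurod1, a basic helix-loop-helix factor and a target of NEUROG3, had a TPM of 2.55, 2.99 and 3.09 in WT and of 4.30, 4.19 and 6.69 in Mtg16-/-. The WT libraries were close together, and every mutant library exceeded them. Its means were 2.88 ± 0.287 and 5.06 ± 1.41 (SD, n = 3), a ratio of 1.76, with a log2 fold change of 0.62 (standard error 0.208, adjusted p = 0.282). Cerkl, which overlaps Neurod1 on the same strand, did not exceed 1.23 TPM in any library. Insm1, a zinc finger factor needed for endocrine differentiation, had a TPM of 1.88, 3.49 and 3.84 in WT and of 4.15, 4.98 and 6.50 in Mtg16-/-. The groups were apart, with WT replicate 1 below the other WT libraries. Its means were 3.07 ± 1.05 and 5.21 ± 1.19 (SD, n = 3), a ratio of 1.70, with a log2 fold change of 0.63 (standard error 0.253, adjusted p = 0.318). Leaving out WT replicate 1 lowered the log2 fold change of Insm1 to 0.40.

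Pax6, a paired homeodomain factor that acts on the glucagon gene, had a TPM of 0.67, 0.65 and 0.72 in WT and of 1.45, 1.37 and 1.51 in Mtg16-/-. These were the smallest spreads of the 9 genes in both groups, with a coefficient of variation of 5.30% in WT and 4.87% in Mtg16-/-. The means were 0.68 ± 0.0361 and 1.44 ± 0.0702 (SD, n = 3), a ratio of 2.12. On the log2(TPM + 1) scale, which understates changes of genes near 1 TPM, the fold change was 0.54 (standard error 0.208, 95% interval 0.0608 to 1.02, adjusted p = 0.311). The overlapping antisense gene Pax6os1 did not exceed 0.51 TPM.

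Pax4, a paired homeodomain repressor that takes part in the choice between endocrine subtypes, had a TPM of 1.16, 1.32 and 1.45 in WT and of 0.99, 1.61 and 1.70 in Mtg16-/-. The mutant group held both the lowest and the highest library. The means were 1.31 ± 0.145 and 1.43 ± 0.387 (SD, n = 3), a ratio of 1.09, with a log2 fold change of 0.06 (standard error 0.223, adjusted p = 0.910). The 95% interval of -0.451 to 0.578 includes the fitted values of Pax6, Nkx2-2, Rfx6 and Fev. The sign of the Pax4 value depended on 1 library, since it was -0.018 without Mtg16-/- replicate 3.

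Isl1, a LIM homeodomain factor, had a TPM of 1.13, 0.95 and 0.84 in WT and of 1.56, 2.11 and 2.51 in Mtg16-/-. All mutant libraries were above the WT libraries. The means were 0.973 ± 0.146 and 2.06 ± 0.477 (SD, n = 3), a ratio of 2.12, with a log2 fold change of 0.62 (standard error 0.220, adjusted p = 0.292). Nkx2-2, a homeodomain factor that can recruit Groucho/TLE co-repressors, had a TPM of 3.98, 3.78 and 3.37 in WT and of 4.03, 7.13 and 6.52 in Mtg16-/-. Mtg16-/- replicate 1 was above the highest WT library by a narrow margin, and the other 2 stood well clear. The means were 3.71 ± 0.311 and 5.89 ± 1.64 (SD, n = 3), a ratio of 1.59, with a log2 fold change of 0.52 (standard error 0.216, adjusted p = 0.327). The overlapping antisense gene Nkx2-2os did not exceed 0.04 TPM.

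Rfx6, a factor required for several enteroendocrine subtypes, had a TPM of 2.39, 1.97 and 0.91 in WT and of 2.44, 3.61 and 2.76 in Mtg16-/-. The groups were apart by a narrow margin, and WT had the widest relative spread of the 9 genes, with a coefficient of variation of 43.4%. The means were 1.76 ± 0.763 and 2.94 ± 0.605 (SD, n = 3), a ratio of 1.67. The fitted log2 fold change came to 0.54 (standard error 0.266, 95% interval -0.0696 to 1.16, adjusted p = 0.382), and it was 0.30 without WT replicate 3. Fev, an ETS factor also known from serotonergic neurons, had a TPM of 1.82, 1.5 and 1.65 in WT and of 2.61, 2.65 and 3.63 in Mtg16-/-. Every mutant library was above the WT range. The means were 1.66 ± 0.160 and 2.96 ± 0.578 (SD, n = 3), a ratio of 1.79, with a log2 fold change of 0.57 (standard error 0.198, adjusted p = 0.291).

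**Figure D2:**
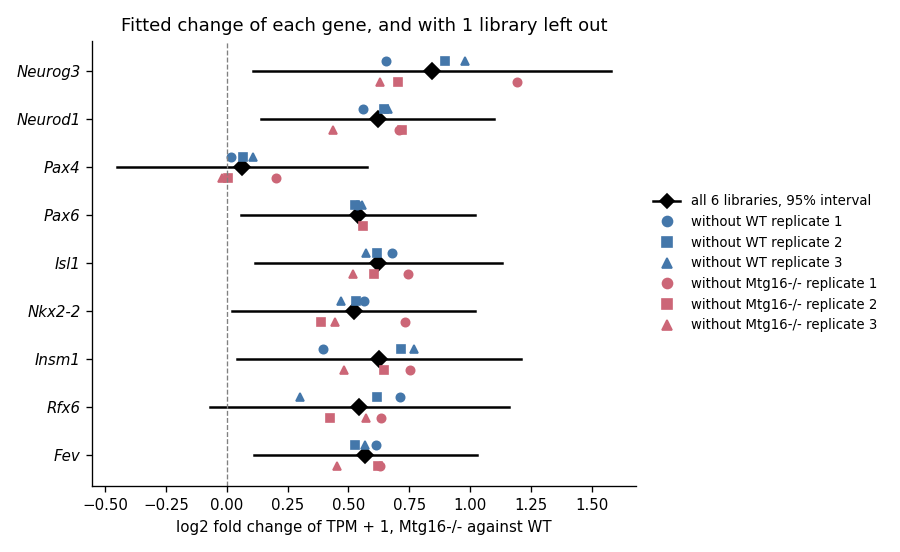
Fitted log2 fold change of TPM + 1, Mtg16-/- against WT, for each gene with all 6 libraries (black diamond, with its 95% interval as a line) and with each library left out (blue for WT, red for Mtg16-/-, a symbol for each replicate number). Pax6 has no point without Mtg16-/- replicate 1 or 3, where its mean was under 1 TPM. The intervals of Pax4 and Rfx6 include 0, and the value of Pax4 without Mtg16-/- replicate 3 is below 0.

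A two-sided exact permutation test of each gene gave p = 0.1 for the 7 genes that were apart, the smallest value that 3 mice against 3 allow, p = 0.2 for Neurog3 and p = 0.7 for Pax4. The highest of the 6 libraries was Mtg16-/- replicate 3 for 7 genes and Mtg16-/- replicate 2 for Nkx2-2 and Rfx6. The lowest mutant library was replicate 1 for 7 genes and replicate 2 for Neurod1 and Pax6. Without Mtg16-/- replicate 3, 8 of the genes passed the filter, 7 of them had a fitted value above 0, and 0 had an unadjusted p under 0.05 in limma's test. With each of the other libraries left out in turn, 2 to 6 had one, the fewest without Mtg16-/- replicate 2. The 6 were of 8 tested, without Mtg16-/- replicate 1. The share of all tested genes at that limit was not counted in these fits, so the counts have no background to be set against.

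The summed TPM of the 9 genes was 18.92, 21.75 and 21.67 in WT and 26.75, 38.94 and 44.42 in Mtg16-/-. The WT libraries were within 3 TPM of each other, and the mutant libraries were all higher and more spread. Neurog3 made up 17.7 to 26.8% of this sum in WT and 19.5 to 29.0% in Mtg16-/-. The share of Pax4 was 6.13, 6.07 and 6.69% in WT and 3.70, 4.13 and 3.83% in Mtg16-/-, lower in 3 of 3 mutant libraries. It was the only one of the 9 shares whose groups were apart (two-sided exact permutation p = 0.1, or 0.9 after Benjamini-Hochberg adjustment over the 9 shares). The lower share restates the TPM values above, since all other genes in the sum had higher means in Mtg16-/-. The ratio of Pax4 to Pax6 TPM, a pair chosen after its values were seen, was 1.73, 2.03 and 2.01 in WT and 0.683, 1.18 and 1.13 in Mtg16-/-.

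**Figure D3:**
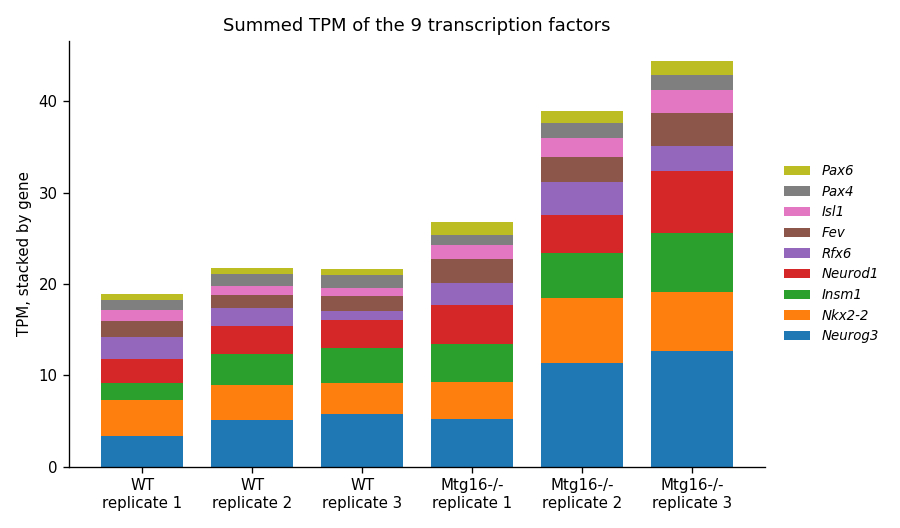
Summed TPM of the 9 genes in each library, stacked by gene, with the vertical axis in TPM. The sum was 18.92 to 21.75 in WT and 26.75 to 44.42 in Mtg16-/-, and Neurog3, at the foot of each bar, was the largest share in 5 of the 6 libraries.

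In bulk RNA, a change in the number of enteroendocrine cells and a change in their RNA content cannot be told apart. The 9 genes were set beside the products of hormone-producing cells, which does not separate these changes either. Neurog3 is switched on earlier, in the progenitor. Hormone genes and granins, the proteins of the secretory granule, also had higher summed levels in the Mtg16-/- libraries. The hormone sum was 376 ± 59.4 TPM in WT and 526 ± 70.8 TPM in Mtg16-/- (SD, n = 3), a ratio of 1.40, and the groups were apart. Of 13 hormone genes, 11 were tested, and 0 were called by limma. All 11 had a fitted value above 0, with a median log2 fold change of 0.51. In limma's test 6 were higher at an unadjusted p under 0.05 (6.53% of all tested genes), and 7 were apart and higher (9.94%). Gcg, which encodes glucagon and GLP-1, had a log2 fold change of 1.15 (adjusted p = 0.104), Tac1, which encodes substance P, 0.94 (adjusted p = 0.237), and Pyy, which encodes peptide YY, 1.17 (adjusted p = 0.263).

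The sum of the granins and prohormone-processing enzymes was 180 ± 18.9 TPM in WT and 258 ± 12.3 TPM in Mtg16-/- (SD, n = 3), a ratio of 1.43, with the groups apart. Of 11 genes, 8 were tested, and 0 were called. All 8 had a fitted value above 0, with a median log2 fold change of 0.58. In limma's test 6 were higher at an unadjusted p under 0.05 (6.53% of all tested genes), and all 8 were apart and higher (9.94%). The carboxypeptidase gene Cpe had a log2 fold change of 0.75 (adjusted p = 0.224), Chgb 0.50 (adjusted p = 0.225) and Scg2 0.74 (adjusted p = 0.254). For each 100 TPM of this granule list, the 9 transcription factors summed to 9.91, 11.4 and 13.7 TPM in WT and to 9.97, 15.0 and 18.2 TPM in Mtg16-/-. Relative to the granule transcripts, the groups overlapped through Mtg16-/- replicate 1, with means of 11.7 in WT and 14.4 in Mtg16-/-, a ratio of 1.23. Taken gene by gene, 8 of the 9 overlapped on this scale, on which the other tested genes were not counted. Pax6 was apart, at 0.351, 0.340 and 0.455 in WT and 0.540, 0.526 and 0.618 in Mtg16-/- (two-sided exact permutation p = 0.1, or 0.675 adjusted over the 9 genes). Per 100 TPM of hormones the 9 summed to 4.26 to 6.42 TPM in WT and 5.32 to 8.29 TPM in Mtg16-/-, which also overlapped.

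Of 23 other transcription factor genes of endocrine cells, 14 were tested, 12 with a fitted value above 0 and 2 below. Their median log2 fold change was 0.28, and 0 were called by limma, with 2 in each direction at an unadjusted p under 0.05 (6.53% of all tested genes higher and 8.05% lower). The groups were apart for 7 genes that were higher in Mtg16-/- and 2 that were lower, against 9.94% and 11.1% of all tested genes. The 3 with the smallest p included both that were lower. Pdx1, a homeobox factor of the proximal gut and pancreas, was at 13.17, 7.32 and 16.77 TPM in WT and 5.43, 2.39 and 4.64 TPM in Mtg16-/- (log2 fold change -1.36, standard error 0.334, adjusted p = 0.241). Onecut2, a cut-homeobox factor of the proximal intestine, had a log2 fold change of -1.004 (adjusted p = 0.263), and Foxa1, a forkhead factor that acts in secretory and endocrine cells, of 0.52 (adjusted p = 0.247).

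Regulators of Notch signaling and of the secretory lineage, not all of them upstream of Neurog3, were fitted in both directions. Of 10 Notch and secretory regulators, 9 were tested, 5 above and 4 below 0, with a median of 0.10, and 0 were called. In limma's test 1 was higher at an unadjusted p under 0.05 (6.53% of all tested genes), and 1 was apart and higher (9.94%). Atoh1, the bHLH factor of secretory progenitors, was at 20.1 ± 2.72 TPM in WT and 16.9 ± 1.54 TPM in Mtg16-/- (SD, n = 3; log2 fold change -0.23, adjusted p = 0.466). Hes1, the Notch target that represses Atoh1 and Neurog3, was at 37.59, 48.20 and 52.55 TPM in WT and 51.23, 64.90 and 71.92 TPM in Mtg16-/- (log2 fold change 0.43, adjusted p = 0.321). The groups overlapped for both genes. Rbpj, the DNA-binding partner of Notch, had a log2 fold change of 0.21 (adjusted p = 0.447), and its groups were apart.

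The 15 cofactors and inhibitors of these factors included E proteins, Id proteins and TLE co-repressors. Of these, 14 were tested, 9 above and 5 below 0, with a median of 0.08, and 0 were called. In limma's test 1 was higher at an unadjusted p under 0.05 (6.53% of all tested genes), and 2 were apart and higher (9.94%), both near those shares. Id4, which encodes an inhibitor of bHLH dimers, was at 2.42, 2.06 and 2.11 TPM in WT and 4.15, 3.52 and 4.21 TPM in Mtg16-/- (log2 fold change 0.63, adjusted p = 0.263), and its groups were apart. The demethylase gene Kdm1a, whose product works with INSM1, had a value of 0.26 (adjusted p = 0.354), with its groups apart as well. The E protein gene Tcf4 had a value of 0.27 (adjusted p = 0.514), with groups that overlapped.

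**Figure D4:**
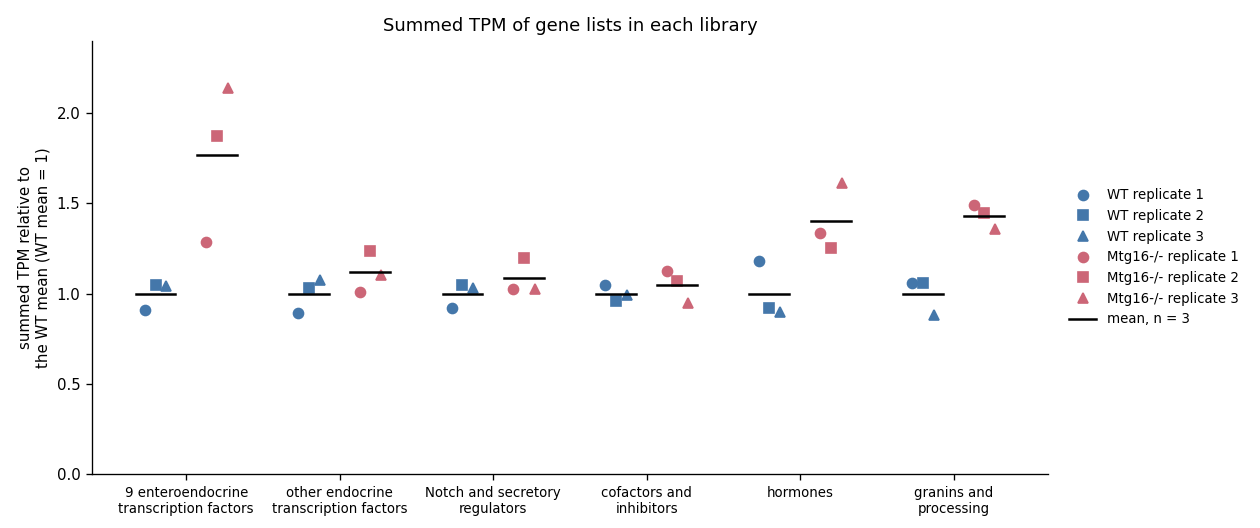
Summed TPM of each gene list in each library, divided by the WT mean of that list, with blue for WT, red for Mtg16-/-, a symbol for each replicate number and the mean (n = 3) as a line. The mutant mean was 1.77 for the 9 transcription factors, 1.40 for hormones and 1.43 for granins and processing enzymes, each with the groups apart, and 1.12, 1.08 and 1.05 for the 3 other lists, whose groups overlapped. The most abundant genes of a list weigh most in its sum. Of the 14 other endocrine transcription factors tested, 7 were apart and higher in Mtg16-/-, and 2 were apart and lower.

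Several of the 9 factors are also used by neurons and by pancreatic islets, so markers of other cell types were read in the same libraries. Enteric neuron markers summed to 1.82 to 2.60 TPM in WT and 3.38 to 4.22 TPM in Mtg16-/- over 9 genes, which were apart in the same direction as the transcription factors. Only Ret of these 9 passed the filter, at a log2 fold change of 0.14 (adjusted p = 0.752), and without it the sum was 0.63 to 1.15 TPM in WT and 1.79 to 2.81 TPM in Mtg16-/-. Enteric glia markers summed to 0.32 to 0.97 TPM in WT and 0.29 to 0.50 TPM in Mtg16-/- over 4 genes, with Sox10 listed at 0 in every library. Of 6 islet markers, Ins1, Ins2, Slc30a8 and G6pc2 were listed at 0 in every library, and the sum did not exceed 0.84 TPM.

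The marker sums of enterocytes and Paneth cells were apart between the genotypes as well. Enterocyte markers summed to 10740 to 31398 TPM in WT, the highest in replicate 1, and 5628 to 10637 TPM in Mtg16-/-, with 9 of 9 fitted below 0. Paneth cell markers summed to 5028 to 11048 TPM in WT and 12947 to 16336 TPM in Mtg16-/-, with 6 of 6 above 0. Of either list, 0 genes were called by limma. In its test 6 enterocyte genes were lower at an unadjusted p under 0.05 (8.05% of all tested genes). At that limit 4 Paneth cell genes were higher (6.53%). The groups overlapped for the Paneth cell genes Mmp7 (log2 fold change 0.12, adjusted p = 0.847) and Pla2g2a (0.12, adjusted p = 0.874). The groups overlapped for the sums of 7 goblet cell markers (7264 to 11803 TPM against 6454 to 9087 TPM), 7 tuft cell markers (43.0 to 87.9 against 34.9 to 46.1), 7 immune cell markers (64.3 to 134.9 against 37.4 to 84.6), 7 mesenchyme markers (2.57 to 5.78 against 5.20 to 6.32) and 7 pancreatic acinar markers (0.17 to 23.6 against 1.27 to 4.20), with WT given before Mtg16-/-. The part of these cell types in the values of the 9 genes was not tested.

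Across the 6 libraries, the genes whose log2(TPM + 1) most resembled the mean deviation of the 9 were Tctex1d2 (Pearson r = 0.995), Btf3l4 (0.992), Zfp266 (0.990), Echdc3 (0.989) and Tmem218 (0.988). Tctex1d2, for example, was at 3.31, 3.49 and 3.24 TPM in WT and 4.6, 5.96 and 7.25 TPM in Mtg16-/-, the same order of the mutant libraries as in the summed transcription factors. Of 12259 other tested genes, 352 reached an r of at least 0.9 and 102 an r of at least 0.95. With 6 libraries that share 1 difference of genotype, such values are a description of likeness only.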

How the data were processed

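RNA was extracted from crypt epithelium, depleted of ribosomal RNA and made into libraries with KAPA RNA HyperPrep from 200 ng of RNA and 14 PCR cycles. The submitters' processing notes name cutadapt 1.9.1, STAR 2.5.2a, RSEM 1.3.0, DESeq2 1.12.3 and mm10, and the annotation and strand setting are not given in the sources used here. The authors deposited TPM values from RSEM, 1 column per library, which keep no read number, so DESeq2 was not run here and no counting interval is given.

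TPM was transformed as log2(TPM + 1), and the 12268 genes with a mean of at least 1 TPM were tested with limma 3.58.1 (lmFit and eBayes with an intensity trend, R 4.3.3), Mtg16-/- against WT, 3 libraries each, with no covariate. Benjamini-Hochberg adjustment ran over all tested genes, with calls at an adjusted p under 0.1. Single values were compared with a two-sided exact permutation test (scipy 1.17.1). The fit was tested on simulated data with independent noise in each gene and library, which checks the code and not how well it suits these libraries. Groups were taken from the genotype in the labels. The replicates are separate mice.

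Named genes are the 9 members, Cbfa2t3, up to 3 tested genes with the smallest p from each other list, and the 5 genes most like the members. Genes that overlap members, defining markers listed at 0, and others where stated, were added after their values were seen. The members and lists were chosen with earlier results of these data known. Positions and promoters are RefSeq GRCm38.p6, and overlaps are from GENCODE. Alternatives were other pseudocounts, filters, scalings and moderation, array weights, a replicate block and each library left out, and 1 combination, no filter with a pseudocount of 0.1, was chosen after seeing the data.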

Additional observations from a re-analysis of the deposited data

How the results depend on the processing

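None of the 9 genes was called under 11 of the 13 ways of fitting all 6 libraries, nor with any library left out, though Pax6 fell under the filter and was not tested without Mtg16-/- replicate 1 or 3. Array weights called 2, Isl1 (log2 fold change 0.67, adjusted p = 0.0950) and Rfx6 (0.91, adjusted p = 0.0899), beside 855 of all tested genes (6.97%). The replicate block called 1, Neurog3 (0.84, adjusted p = 0.0423), beside 1201 genes (9.79%). Deviations of same-numbered libraries correlated at 0.429, 0.0753 and 0.237 for replicates 1, 2 and 3. Replicates 1 and 3 correlated best with their own number, and replicate 2 did not. The labels give only a replicate number, and the block was not used for the report. Whether same-numbered libraries shared a batch was not tested. Genes called among all tested, 4 in the report, numbered 0 with no filter, with a minimum of 0.1 TPM, with no intensity trend, at an adjusted p under 0.05 and with no filter and a pseudocount of 0.1, 1 with median-ratio rescaling or quantile normalization, 15 with a minimum of 5 TPM, which tested only Neurog3 of the 9, 20 with robust moderation, and 0 (without Mtg16-/- replicate 3) to 40 (without WT replicate 1) with 1 library left out. The median log2 fold change of the 9 was 0.79 with a pseudocount of 0.1, with or without the filter, 0.84 with a minimum of 5 TPM, and 0.47 to 0.72 with 1 library left out (8 genes where Pax6 was not tested). Only Pax4 turned, to -0.018 without Mtg16-/- replicate 3, within a range up to 0.20 over the libraries left out. The cause of these differences was not tested. TPM keeps no depth, so the counting error of genes near 1 TPM is unknown.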
